A study of Homo sapiens with 4 samples.

Results

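S100 proteins are small calcium sensors of the EF-hand type that mostly work as dimers. Calcium binding opens a surface through which they hold target proteins such as annexins, myosins and ezrin, and some members are also secreted and bind receptors on other cells. Most of their genes lie together on chromosome 1, whereas the gene of S100P lies on chromosome 4. Several members are followed in breast tumours, S100P and S100A4 as genes linked to motility and invasion, and S100A8 and S100A9 as the subunits of calprotectin. The 10 members described here are S100P, S100A4, S100A6, S100A8, S100A9, S100A10, S100A11, S100A13, S100A14 and S100A16, taken by symbol from 23605 symbols per library. The tables list 21 S100 genes, 12 of them above 0 in at least 1 library, and the 10 members are those 12 without S100A2 and S100A7. The list was selected on the symbols with the FPKM of these same A7 and vehicle libraries known, so the differences between the groups are given as a description and not as a test.

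RNA was sequenced from LCC9 cells, an established breast cancer line labelled as tamoxifen-resistant and positive for wild-type estrogen receptor alpha, grown without phenol red in 5% charcoal-stripped serum, which is poor in estrogen. The groups were vehicle (DMSO, 2 libraries) and A7 (2 libraries), a compound labelled as a mimetic of the tumour suppressor BRCA1, each given for 24 h. The dose of A7 is not given in the sources used here, its catalogue number in the titles of the libraries differs from that in the title of the series, so that only the code name is used, and the labels do not say whether replicate libraries stem from separate cultures, and every p-value measures only the spread between these libraries, which may be technical. All values are FPKM (fragments per kilobase of transcript and 1000000 mapped fragments) divided by a scale factor per library, called scaled FPKM, and differences are on log2(scaled FPKM + 1), A7 minus vehicle. In bulk RNA, fewer cells that express a gene and less RNA per cell cannot be told apart.

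Summed FPKM per library lay between 1189056 and 1473540, and 8763 to 9102 genes reached an FPKM of 1. Steps between low values put the depth, relative to vehicle replicate 1, at 0.9754 in vehicle replicate 2, at 1.85 in A7 replicate 1 and at 1.43 in A7 replicate 2. The 8 luminal markers checked against the labelled luminal origin (among them ESR1, GATA3, FOXA1 and KRT8) all had a mean FPKM of at least 1, with summed levels of 772 to 1150 scaled FPKM. Among the 8952 genes whose mean FPKM reached 1, limma called 1 higher and 1 lower under A7 at an adjusted p under 0.05.

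The stretches just upstream of 5 members' starts are shown. S100P and S100A4 were chosen as the members with the lowest and the highest difference, S100A11 and S100A6 as those with the highest levels, and S100A10 as the neighbour of S100A11 on chromosome 1. Each line gives the 100 bases before the annotated start, 5′ to 3′, from the RefSeq promoter table of build GRCh38.p14, and capitals mark matches to TATAA (as given, the core of a TATA box) or to AGGTCA (either strand, the arm of an estrogen response element). The windows are chr4:6693778-6693877 on the plus strand for S100P and, on the minus strand, chr1:153545807-153545906 for S100A4, chr1:153535992-153536091 for S100A6, chr1:151993860-151993959 for S100A10 and chr1:152037005-152037104 for S100A11.
S100P: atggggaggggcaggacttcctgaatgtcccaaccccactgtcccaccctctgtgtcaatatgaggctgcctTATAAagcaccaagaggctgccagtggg
S100A4: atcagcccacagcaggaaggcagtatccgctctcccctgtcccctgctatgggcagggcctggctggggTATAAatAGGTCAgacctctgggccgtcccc
S100A6: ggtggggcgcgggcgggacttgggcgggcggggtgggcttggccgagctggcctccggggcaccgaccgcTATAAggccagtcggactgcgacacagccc
S100A10: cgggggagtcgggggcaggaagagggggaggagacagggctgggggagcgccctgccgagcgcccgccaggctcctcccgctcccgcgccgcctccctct
S100A11: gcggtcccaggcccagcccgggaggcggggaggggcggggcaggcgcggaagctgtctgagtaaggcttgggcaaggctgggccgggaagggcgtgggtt

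All 10 members matched the promoter table, whose windows run from 250 bases before to 50 after the start. TATAA was found in 5 of the 10 windows (S100P, S100A4, S100A6, S100A9 and S100A14), each time with its first base 28 to 31 bases before the start, and in 14.8% of all 35116 windows of this length. AGGTCA was found in the window of S100A4 only among the 10, and in 13.8% of all windows. On both strands, the full estrogen response element (its palindrome with 3 free bases) and the AP-1 site TGANTCA matched none of the 10 windows. They matched 0.057% and 7.71% of all windows. A kappa-B pattern (3 G, 2 free bases, 3 T and 2 C), searched on both strands, matched none of the 10 and 1.91% of all windows. This pattern does not cover every form of the kappa-B consensus, and the consensus itself was not searched. The number of CG pairs was 31 for S100A6, 32 for S100A10, 22 for S100A11 and 19 for S100A13, the 4 members with a mean FPKM above 100, and 2 to 8 for the other 6 members, with a median of 14 over all windows. These matches describe letters in the windows, and binding was not measured.

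The members spanned 4 orders of magnitude in level, and the upper 5 kept their order in every library. S100A11 was far above the rest, with a mean over the 4 libraries of 6113 scaled FPKM, followed by S100A6 at 1247, S100A13 at 603, S100A10 at 435 and S100A16 at 61.1. In each of these neighbouring pairs, and between S100A16 and S100P, the lowest library of the higher gene lay above the highest library of the lower one. S100P (13.5), S100A4 (12.3), S100A8 (11.8) and S100A14 (9.86) could not be ordered in this way, since their ranges overlapped, and S100A9 came last at 0.439. Together the 10 members held 0.654% and 0.604% of the FPKM sum under vehicle, against 0.678% and 0.724% under A7. S100A11 alone held 68.7% to 73.5% of the members' part. The FPKM sum itself was 1324082 and 1473540 under vehicle and 1189056 and 1192830 under A7. The summed level of the members went the opposite way to their share, with 8633 and 8774 scaled FPKM under vehicle against 8147 and 8473 under A7. FPKM are per transcript length, so the order of the genes and their shares depend on the transcript lengths used. Which lengths the authors took is unknown here, and comparisons of level between genes hold only for those lengths.

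**Figure D1:**
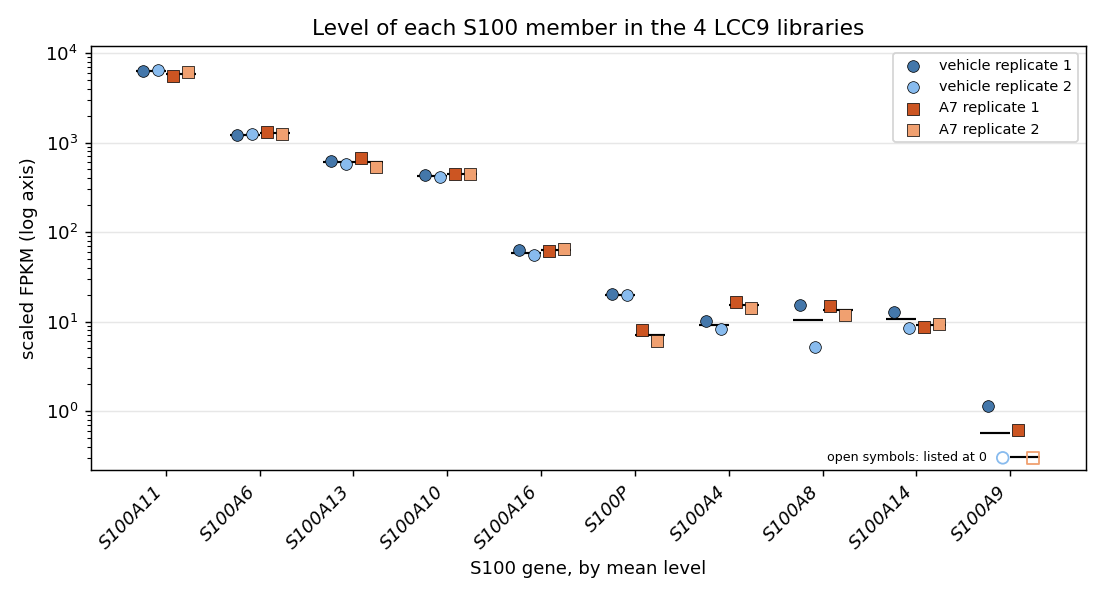
Scaled FPKM (log axis) of the 10 S100 members in the vehicle libraries (circles) and the A7 libraries (squares), with a bar for each group mean and open symbols for values listed at 0. S100P at 20.5 and 19.5 under vehicle against 7.95 and 6.02 under A7 is the widest gap between groups, and S100A11, S100A6, S100A13, S100A10 and S100A16 form separate steps.

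Listed at 0 in every library were 9 genes of the S100 family, S100A1, S100A3, S100A5, S100A7A, S100A7L2, S100A12, S100B, S100G and S100Z. Along chromosome 1, in the RefSeq gene order, 63 coding genes run from S100A10 at one end to S100A1 at the other, 16 of them S100A genes and 47 others. S100A10 and S100A11 form one end, and the other S100A genes stand side by side at the other end behind the genes of the epidermal differentiation complex, which encode proteins of the cornified skin layer. None of the 45 intervening genes found in the tables reached a mean FPKM of 1, whereas 8 of the 16 S100A genes did. Some S100A genes with a mean FPKM of at least 1 stood beside each other, S100A10 next to S100A11 and S100A16, S100A14 and S100A13 in a row. Others stood between genes at 0, S100A8 (11.8 scaled FPKM) between S100A12 and S100A7A and S100A4 (12.3) between S100A5 and S100A3. Of 8 markers of basal or squamous epithelium, 4 (KRT5, KRT14, KRT17 and KRT6A) were at 0 in all libraries, and the summed level of the list was 4.42 to 5.80 scaled FPKM. Most of that sum was KRT10, detected in all 4 libraries, and TP63 was also above 0 in all 4.

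**Figure D2:**
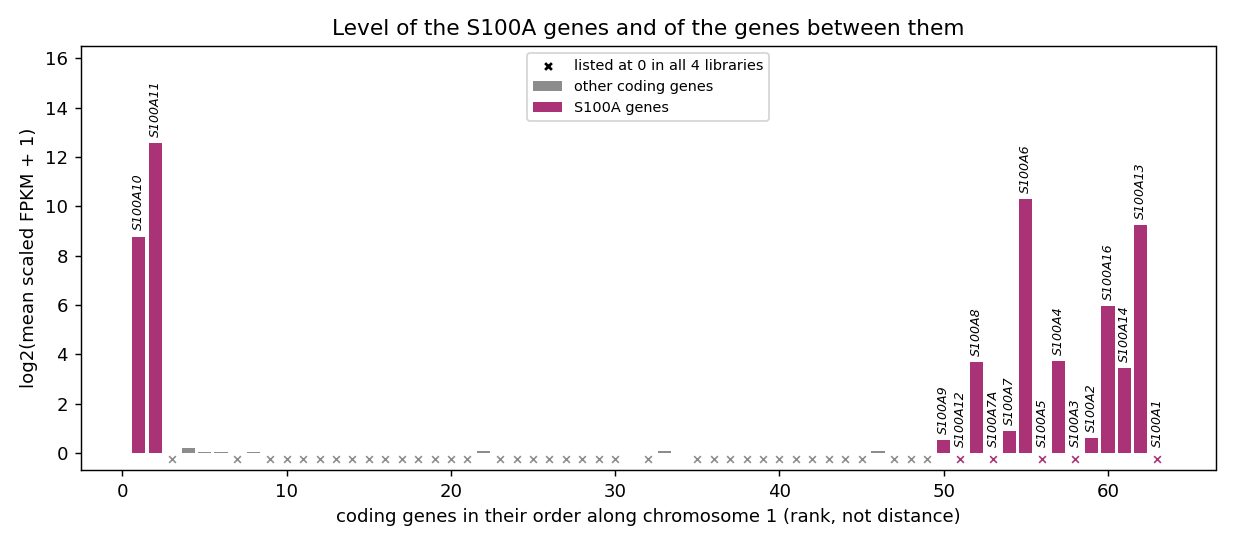
Mean level, as log2(mean scaled FPKM + 1), of the coding genes from S100A10 to S100A1 in their order along chromosome 1, with S100A genes in purple, other genes in grey and crosses for genes listed at 0 in all 4 libraries. The 2 ends hold the expressed S100A genes, and none of the intervening genes reaches a mean FPKM of 1.

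Between the groups, 9 of the 10 members passed the minimum of a mean FPKM of 1 and entered the fit, and S100A9 did not. None of the 9 was called by limma at an adjusted p under 0.05, where 0.0223% of all tested genes were called in either direction. At an unadjusted p under 0.05 there were 2 members (S100P and S100A4) and 516 of the 8952 tested genes, and the members were chosen with this contrast known. The groups did not overlap in 4 of the 9, S100P and S100A11 lower and S100A4 and S100A10 higher under A7, where 36.9% of all tested genes did not overlap (18.6% lower and 18.3% higher). Of the 9 tested members 3 had a lower mean under A7 (S100P, S100A11 and S100A14), against 50.3% of all tested genes. The median difference of the 9 was 0.06, against -0.0019 over all tested genes. Of the 9, only S100A14 had a mean FPKM under 10. Among the 3280 tested genes at or above 10, 64.8% had a lower mean, and the median difference was -0.081. Without overlap, 955 of these 3280 were lower and 366 higher. The counts of members depended on the scaling, with 3 higher and 1 lower without overlap in the deposited FPKM. After rescaling to TPM, a setting whose median over all genes was 0.17, they were 4 higher and 1 lower. S100P had the largest difference of the 9 in size, followed by S100A4 and S100A8. S100P and S100A4 kept their direction under all 13 alternatives, and S100A8 did not. Much of this was fixed in advance, since other filters, no trend and a replicate block cannot change an estimate. Leaving out 1 library can hardly turn the direction where the groups do not overlap.

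**Figure D3:**
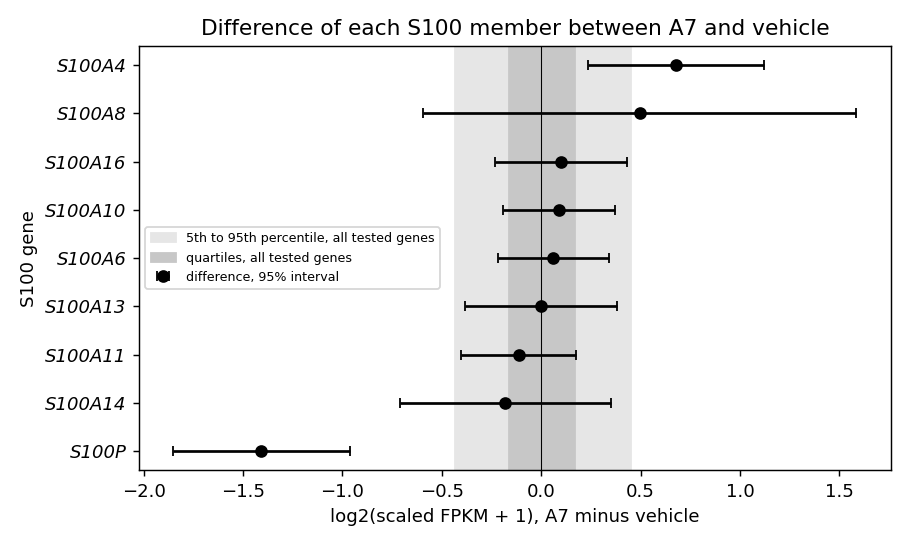
Difference between A7 and vehicle on log2(scaled FPKM + 1) for the 9 tested members, with 95% intervals from the fit over all genes, over the quartiles (dark band, -0.16 to 0.17) and the 5th to 95th percentiles (light band, -0.43 to 0.45) of all tested genes. The estimates of S100P at -1.41, S100A4 at 0.68 and S100A8 at 0.50 lie outside the light band, and only the interval of S100P lies wholly outside it.

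S100P, a secreted and intracellular member that binds the membrane linker ezrin and the scaffold IQGAP1, was listed at 20.5 and 19.5 scaled FPKM in the vehicle libraries and at 7.95 and 6.02 in the A7 libraries. Both A7 libraries were below both vehicle libraries, and the gap between the groups was wider than the gap within either group. Group means were 20.04 ± 0.707 for vehicle and 6.99 ± 1.36 for A7 (SD, n = 2 each), a 2.87-fold lower level, with a log2 difference of -1.41 (SE 0.18, 95% interval -1.85 to -0.96). Among all tested genes 0.436% had a difference as low as this or lower. In rank among all symbols, S100P stood at 2111 and 2195 under vehicle and at 3729 and 4320 under A7. The log2 difference ranged from -1.58 without A7 replicate 1 to -1.18 with FPKM rescaled to TPM.

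The depth behind S100P was small. If 1 fragment is worth as much FPKM in S100P as in S100A7, a transcript of 442 nt, the values correspond to about 12.2 and 11.5 fragments in the vehicle libraries (24 in sum) and to 8.6 and 5.2 in the A7 libraries (14 in sum). The ratio per depth is then 0.351 with an exact 95% counting interval of 0.168 to 0.706, which covers counting error only. With the transcript of 1279 nt that GENCODE 29 links to RefSeq, the fragments would be 112 and 66 and the interval 0.257 to 0.485. The transcript length the authors used is not given in the sources used here. Both estimates rest on S100A7 holding 1 fragment in each vehicle library, which was assumed.

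Ezrin (EZR), the partner of S100P at the membrane, was listed at 41.0 and 39.7 scaled FPKM under vehicle and 50.7 and 48.5 under A7 (log2 difference 0.29, SE 0.13, limma adjusted p = 0.806). IQGAP1 was listed at 10.2 and 12.6 under vehicle and at 13.6 and 15.2 under A7 (0.32, SE 0.17, limma adjusted p = 0.806). Both partners had higher values in both A7 libraries, the opposite of S100P, and neither passed. The receptor RAGE (AGER), which binds secreted S100P, was listed at 0.429 and 0 under vehicle and at 0.465 and 0.290 under A7, under the minimum for a test. S100PBP, which encodes a nuclear protein that binds S100P, was level at 4.29 and 4.02 under vehicle and 3.82 and 4.06 under A7 (-0.06, SE 0.17, limma adjusted p = 0.961).

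Tested genes near S100P on chromosome 4 had a median absolute difference of 0.173, against 0.166 over all tested genes. MRFAP1L1, the next coding gene after S100P in RefSeq order, was listed at 32.9 and 34.8 scaled FPKM in the vehicle libraries and at 37.3 in both A7 libraries. Of the 14 listed genes near S100P (TNIP2, at 35 genes away, is the farthest) 8 were tested, 6 with a higher and 2 with a lower mean, and their median difference was 0.12. None was called (limma, smallest adjusted p 0.806), and 0 had an unadjusted p under 0.05. The smallest unadjusted p among them belonged to TADA2B (0.37, SE 0.23), TNIP2 (0.27, SE 0.21), GRPEL1 (-0.16, SE 0.13) and MRFAP1L1 (0.14, SE 0.13).

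The genes whose profile over the 4 libraries lay nearest to that of S100P were sought among the 3279 other tested genes whose mean FPKM reached 10, by Euclidean distance between centred log2 values. The nearest 5 were TFF1 (distance 0.371), NME1-NME2 (0.455), IL20 (0.464), TUBA3D (0.544) and HIST1H2AJ (0.579). TFF1, a secreted trefoil peptide, was listed at 75730 and 79931 scaled FPKM under vehicle and 35311 and 35079 under A7. IL20, a cytokine gene, was listed at 110 and 129 under vehicle and 53.5 and 55.7 under A7. The other 3 share near-identical sequence with other genes (NME1-NME2 with NME1 and NME2, TUBA3D with TUBA3E and TUBA3C, HIST1H2AJ with HIST1H2AI), so their reads may be split. Likeness over 4 libraries largely repeats the difference between the groups and is given as a description.

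S100A4, which binds the heavy chain of non-muscle myosin and is also abundant in fibroblasts and other mesenchymal cells, was the member with the largest higher difference. It was listed at 10.3 and 8.23 scaled FPKM under vehicle and at 16.54 and 14.2 under A7. The groups did not overlap, and the spread within each group was smaller than the gap between them. Group means were 9.24 ± 1.43 for vehicle and 15.4 ± 1.66 for A7 (SD, n = 2 each), 1.66-fold higher under A7, with a log2 difference of 0.68 (SE 0.18, 95% interval 0.24 to 1.12). Among all tested genes 1.79% had a difference as high as this or higher. The estimated fragments were 16 under vehicle and 45 under A7, and the ratio per depth was 1.69 with an exact 95% counting interval of 0.938 to 3.21, which includes 1. In every vehicle library S100P was above S100A4 (ratio 2.00 and 2.38), and in every A7 library it was below (0.481 and 0.424).

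Fibroblast markers were read beside S100A4. Of 8 such markers, PDGFRB and THY1 were at 0 in all libraries. The summed level of the 8 was 0.416 and 0.421 scaled FPKM under vehicle, 11.1 in A7 replicate 1 and 0.963 in A7 replicate 2. Decorin (DCN) held most of the sum in A7 replicate 1, at 8.40 there, 0.230 in A7 replicate 2 and 0 under vehicle. COL1A1 made up the whole sum under vehicle, and was listed at 1.34 and 0.613 in the A7 libraries. LUM was at 0 under vehicle and at 1.08 and 0.120 under A7. COL1A2, COL3A1 and FAP were above 0 in A7 replicate 1 only. Without A7 replicate 1, the level of S100A4 was 1.54-fold higher under A7. The part that fibroblast RNA may have in the S100A4 values was not tested. MYH9, the myosin heavy chain that S100A4 binds, was listed at 1.49 and 1.29 under vehicle and 2.63 and 2.29 under A7 (log2 difference 0.54, SE 0.21, limma adjusted p = 0.806). Its values were higher in both A7 libraries, as those of S100A4 were, but it did not pass the test.

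S100A8 and S100A9 encode the subunits of calprotectin, which neutrophils and monocytes hold in large amounts and inflamed epithelia make too. S100A8 was listed at 15.4 and 5.22 scaled FPKM under vehicle and 14.9 and 11.8 under A7. Vehicle replicate 2 was the low library, vehicle replicate 1 the highest of all 4, and both A7 libraries lay between them. The means were 10.3 ± 7.20 and 13.3 ± 2.18 (SD, n = 2 each), a log2 difference of 0.50 with a 95% interval of -0.59 to 1.59. The A7 to vehicle ratio was 1.29, but 2.55 without vehicle replicate 1 and 0.865 without vehicle replicate 2, so no direction can be given. About 3.6 fragments lie behind the value of vehicle replicate 2 and 10.8 behind that of vehicle replicate 1.

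S100A9 was at the limit of detection. It was listed at 1.14 and 0 scaled FPKM under vehicle and at 0.616 and 0 under A7. Multiplied by relative depth, the deposited FPKM of its detected libraries were 1.14 and 1.13, as equal counts would give. They were taken as 1 fragment each, which is an assumption. S100A8 thus came with little of its partner, and in vehicle replicate 2 and A7 replicate 2 S100A9 was not detected. Of 10 neutrophil and monocyte markers, 6 (PTPRC, CD14, MPO, FCGR3B, TYROBP and SPI1) were at 0 in all libraries. The summed level of the list was 0.571 to 1.82 scaled FPKM. LYZ was above 0 in all 4 libraries, at 1.12 and 0.571 under vehicle and 1.38 and 0.405 under A7. ITGB2 was above 0 in 3 libraries, and ITGAM and CSF3R in A7 replicate 2 only. TLR4, a receptor for calprotectin, was at 0 in all libraries, and BSG, another surface protein that S100A9 binds, was listed at 5.28 and 10.3 under vehicle and 8.80 and 11.2 under A7.

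S100A7 and S100A2, the family genes above 0 that are not among the 10, were as sparse. S100A7, known as psoriasin, was listed at 1.68 and 1.70 scaled FPKM in the vehicle libraries and at 0 in both A7 libraries. Multiplied by relative depth, the vehicle values came to 1.69 and 1.68. These near-equal values were assumed to be 1 fragment each, so no fold is given. S100A7 also shares near-identical sequence with S100A7A. S100A2 was listed at 0 and 1.08 under vehicle and at 0.580 and 0.370 under A7.

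S100A10, also called p11, does not bind calcium and forms a complex with annexin A2 at the plasma membrane. It was listed at 432 and 411 scaled FPKM under vehicle and 448 and 450 under A7. Both A7 libraries were above both vehicle libraries, by a small margin, with means of 422 ± 15.2 and 449 ± 1.48 (SD, n = 2 each) and a log2 difference of 0.09 (95% interval -0.19 to 0.37). ANXA2, its partner, was listed at 317 and 390 under vehicle and at 299 and 332 under A7 (-0.16, SE 0.15, limma adjusted p = 0.864), with overlapping groups. The ratio of S100A10 to ANXA2 was 1.36 and 1.05 under vehicle and 1.499 and 1.36 under A7, and the ratios of the groups met. The listed FPKM of S100A10 was thus above that of its partner in every library, which depends on the transcript lengths used. AHNAK, a giant scaffold protein that the complex binds, was listed at 5.94 and 3.41 under vehicle and 6.59 and 7.92 under A7 (0.57, SE 0.26, limma adjusted p = 0.806).

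S100A11, which binds annexin A1 and acts in membrane repair and keratinocyte growth control, was the most abundant member. It was listed at 6254 and 6447 scaled FPKM under vehicle and 5597 and 6153 under A7. The A7 libraries were below the vehicle libraries, with A7 replicate 2 close to vehicle replicate 1. In the deposited FPKM the groups overlapped, with A7 replicate 2 at 6274 and vehicle replicate 1 at 6269. The means were 6351 ± 136 and 5875 ± 394 (SD, n = 2 each), a log2 difference of -0.11 (95% interval -0.40 to 0.17), which turned to 0.11 with FPKM rescaled to TPM and to 0.063 after quantile normalization. In rank it stood between 31 and 39 of all symbols in every library. ANXA1, its best known partner, was nearly absent, at 0.305 and 0.308 under vehicle and at 1.02 and 0.218 under A7, under the minimum for a test.

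S100A6, or calcyclin, binds the adaptor CACYBP of a ubiquitin ligase and several annexins. It was listed at 1201 and 1241 scaled FPKM under vehicle and 1313 and 1234 under A7. The groups overlapped, and the log2 difference was 0.06 (95% interval -0.22 to 0.34). CACYBP was listed at 73.1 and 77.3 under vehicle and at 56.8 and 63.9 under A7, lower in both A7 libraries (-0.31, SE 0.14, limma adjusted p = 0.806), and did not pass.

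S100A13, which takes part in the release of FGF1 and interleukin 1 alpha without a signal peptide, had the same mean in both groups. It was listed at 623 and 578 scaled FPKM under vehicle and 680 and 530 under A7. The A7 libraries held both the highest and the lowest value, and the ratio of the means was 1.01, with a 95% interval of the log2 difference of -0.38 to 0.38. In GENCODE 29 the exons of S100A13 share 536 bases with the noncoding AL162258.1 on the same strand, which the tables do not list, so reads from that stretch cannot be told apart. They also overlap those of S100A1 on the opposite strand by 235 bases, and no strand-marking step is named in the labels, but S100A1 was listed at 0.

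S100A14, a member found mainly in epithelia, and S100A16 stand side by side on chromosome 1. S100A14 was listed at 12.7 and 8.57 scaled FPKM under vehicle and 8.70 and 9.502 under A7. Vehicle replicate 1 was the high library, the groups overlapped, and the log2 difference of -0.18 (95% interval -0.71 to 0.35) turned to 0.074 without that library and to 0.021 with FPKM rescaled to TPM. S100A16 was listed at 62.3 and 55.6 under vehicle and at 62.0 and 64.5 under A7, a log2 difference of 0.10 (95% interval -0.23 to 0.43) with overlapping groups. The ratio of S100A16 to S100A14 was 4.93 and 6.49 under vehicle and 7.13 and 6.79 under A7.

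**Figure D4:**
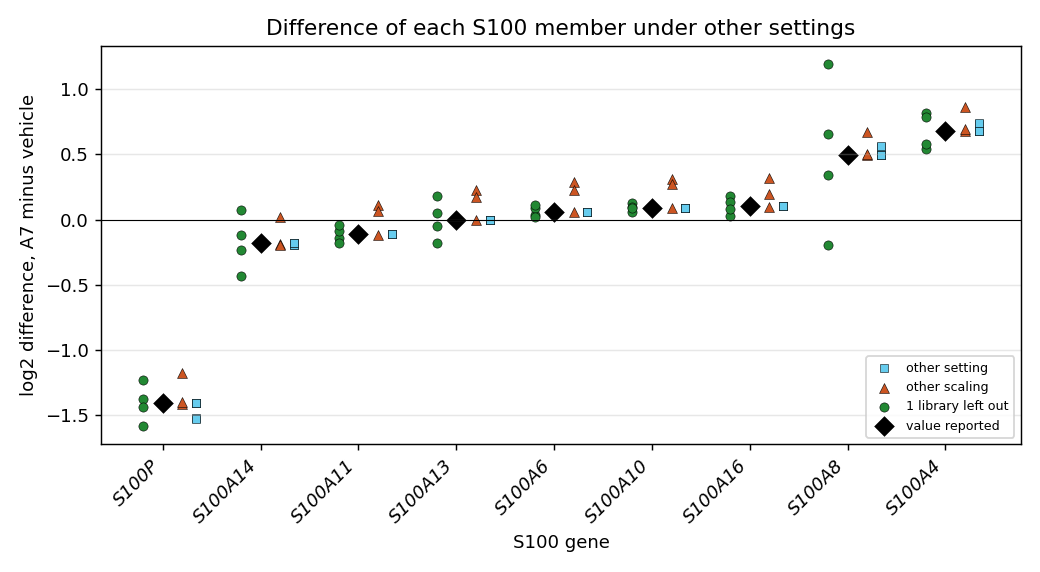
Difference between A7 and vehicle on the log2 scale for the 9 tested members as reported (diamonds), with 1 library left out (circles), with another scaling (triangles) and under the other settings (squares). S100P stays between -1.58 and -1.18 and S100A4 between 0.54 and 0.87, whereas S100A8 lies at -0.20 without vehicle replicate 2 and at 1.19 without vehicle replicate 1.

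Lists of genes tied to the S100 proteins showed no member past the test. Of 25 protein partners 21 were tested, 10 with a higher and 11 with a lower mean, with a median difference of -0.0018 beside -0.0019 over all tested genes. None was called by limma, and 1 (MYH9) had an unadjusted p under 0.05. Of 10 surface receptors of secreted S100 proteins 5 were tested, 3 higher and 2 lower, with a median of 0.05, 0 calls and 0 at an unadjusted p under 0.05. Those with the smallest p were BSG (0.38, SE 0.31), SDC4 (0.11, SE 0.14), ALCAM (-0.10, SE 0.21) and CD36 (-0.12, SE 0.26). The syndecan SDC4 was the most abundant of them, at 27.8 and 28.7 scaled FPKM under vehicle and 29.6 and 31.3 under A7.

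Annexins, which bind membranes in the presence of calcium, divided evenly. Of 12 listed, 8 were tested, 4 higher and 4 lower, with a median of 0.03. ANXA9 had the smallest p, at 4.19 and 4.75 scaled FPKM under vehicle and 5.99 and 6.79 under A7 (0.43, SE 0.18, limma adjusted p = 0.806), and was the 1 annexin with an unadjusted p under 0.05. ANXA11 (-0.32, SE 0.22), ANXA5 (-0.22, SE 0.15) and ANXA6 (0.17, SE 0.15) followed, and none was called. ANXA2 and ANXA5 were the abundant members of this family, with ANXA5 at 242 and 294 under vehicle and 215 and 244 under A7.

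Other EF-hand calcium sensors held none that passed. Of 34 listed, 23 were tested, 15 with a lower and 8 with a higher mean, with a median of -0.07. PDCD6, a sensor in vesicle transport also called ALG-2, was listed at 71.8 and 74.2 scaled FPKM under vehicle and 56.8 and 52.6 under A7 (-0.41, SE 0.13). EFHD1, a mitochondrial sensor, was listed at 18.2 and 16.6 under vehicle and 28.6 and 22.4 under A7 (0.52, SE 0.17). Both had a limma adjusted p = 0.806, and they were the 2 sensors with an unadjusted p under 0.05. CALM2, the most abundant calmodulin gene, was listed at 1500 and 1980 under vehicle and at 1282 and 1454 under A7 (-0.34, SE 0.17), and CIB1 had a difference of -0.31 (SE 0.17). With FPKM rescaled to TPM the median of this list turned to 0.14, with 4 lower.

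The genes beside the S100A genes on chromosome 1 more often had a higher than a lower mean under A7, and the direction of the list was not tested. Of 29 listed, 18 were tested, 13 higher and 5 lower (27.8% lower, against 50.3% of all tested genes), with a median of 0.03, 0 calls by limma and 2 at an unadjusted p under 0.05. Those 2 were HAX1, an apoptosis regulator, at 208 and 232 scaled FPKM under vehicle and 164 and 171 under A7 (-0.39, SE 0.13), and ILF2, an RNA-binding protein gene, at 192 and 200 under vehicle and 120 and 165 under A7 (-0.47, SE 0.18). SLC39A1 (0.29, SE 0.15) and CRTC2 (0.33, SE 0.23) had the next smallest p. The direction of the list hung on single libraries. The count with a lower mean was 10 without A7 replicate 1 and 8 without vehicle replicate 2. It was 5 without vehicle replicate 1 and 6 without A7 replicate 2. Listed genes that lie among the S100A genes, such as IVL, did not reach the minimum for a test.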

How the data were processed

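The authors deposited 1 table of FPKM per gene symbol for each of 4 libraries, per the file headers. The submitters' processing notes name CASAVA 1.8.2, TopHat, Cufflinks 2.2.1 and build GRCh37 without saying what each did. For the annotation and for reads that map more than once, the treatment is not given in the sources used here. Of 23619 lines, 14 with a number as symbol were left out (at most 0.00539% of summed FPKM), which left 23605.

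Libraries were divided by their median ratio to the geometric mean (8802 genes), with factors of 0.990 to 1.02. The 8952 genes whose mean FPKM reached 1 were fitted with limma 3.58.1 in R 4.3.3 (eBayes with trend) on log2(scaled FPKM + 1), a pseudocount of 1, two-sided, with Benjamini-Hochberg adjustment over all of them. No count model was used, since FPKM are normalized. The pseudocount makes differences of low genes too small. The model left 2 residual and 3.89 prior degrees of freedom. An exact permutation test of 2 against 2 cannot go below p = 0.333.

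Relative depth came from the commonest ratio of low values between libraries, and fragments from it and GENCODE 29 transcript lengths. S100A9 and S100A7 were assumed to hold 1 fragment in each library above 0, which set how much the transcript lengths were shortened. Near-identical copies (identity of at least 95% over at least 50%) were sought with blastn 2.17.0 for the S100 genes above 0 and the 5 genes nearest to S100P, and no copy was found for the 10 members. Positions are of GRCh38.p14, another build than the authors', and are given only for the RefSeq promoter windows.

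The members and lists were chosen with earlier results of these data known. Named beside the members were other S100 genes above 0, a set of defining partners and receptors, the up to 4 genes of each list with the smallest p, and the 5 genes nearest to S100P. Alternatives were other scalings, pseudocounts, filters, no trend, a replicate block and leaving out each library.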

Additional observations from a re-analysis of the deposited data

How the results depend on the processing

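Depth limits S100P, S100A4, S100A8, S100A9 and S100A14 to about 2 to 113 estimated fragments in all (178 at most for S100P), whereas S100A11 rests on about 30715. S100P and S100A4 kept their direction under all 13 alternatives, of which other filters, no trend and a replicate block cannot change an estimate. With 1 library left out they ranged from -1.58 to -1.23 and from 0.54 to 0.82. The other tested members ranged, with 1 library left out, from 0.017 to 0.11 (S100A6), -0.20 to 1.19 (S100A8), 0.059 to 0.12 (S100A10), -0.18 to -0.044 (S100A11), -0.18 to 0.18 (S100A13), -0.43 to 0.074 (S100A14) and 0.026 to 0.18 (S100A16). Without vehicle replicate 2, S100A8 reversed to -0.20 and S100A13 to -0.048. S100A13 was also -0.18 without A7 replicate 1 and -0.0051 in the deposited FPKM, and S100A14 was 0.074 without vehicle replicate 1. FPKM rescaled to TPM gave 0.28 for S100A6, 0.31 for S100A10, 0.11 for S100A11, 0.021 for S100A14 and 0.32 for S100A16 (relative to the median of all genes 0.11, 0.14, -0.063, -0.15 and 0.15). Quantile normalization gave 0.22 for S100A6, 0.27 for S100A10 and 0.063 for S100A11. The count of members with a lower mean was 1 with TPM and 2 to 5 with 1 library left out, 5 without vehicle replicate 2. In each case where the direction turned, the cause was not tested.

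Over all genes, limma called 0 higher with no filter or no trend, and 0 to 10 with 1 library left out. It called 2 lower with TPM or quantile normalization, 0 with a pseudocount of 0.1 or 0.01 or no filter, 3 when only genes of at least 10 FPKM were kept, and 0 to 7 with 1 library left out. Each of the 4 libraries moved these counts (higher and lower calls were 0 and 0 when A7 replicate 1 was left out, 10 and 3 for A7 replicate 2, 1 and 6 for vehicle replicate 1, 2 and 7 for vehicle replicate 2). A replicate block left 0 called higher and 0 lower, and it cannot move an estimate in this balanced design. Same-numbered libraries shared little (correlation of the replicate differences 0.091 over genes), and the labels do not say what the numbers mean. Under the alternatives that kept all 4 libraries, none of the other S100 genes, partners, receptors, annexins, EF-hand sensors or neighbouring genes was called. Calls among the 10 members and the cell type markers were not counted under the alternatives.

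With TPM the list medians were 0.17 (partners, 2 lower), 0.25 (receptors, 0 lower), 0.25 (annexins, 1 lower), 0.14 (EF-hand sensors, 4 lower), 0.24 (genes beside the S100A genes, 3 lower) and 0.29 (genes near S100P, 1 lower), each near the shift of 0.17 or above it. Quantile normalization gave 0.048 for partners and 0.026 for EF-hand sensors. No filter gave 0.0012 for partners, 4 lower receptors and 5 lower genes near S100P. The 10 FPKM minimum gave 0 lower receptors, -0.020 for annexins, 3 lower beside the S100A genes and, near S100P, 0.073 with 1 lower. With 1 library left out the medians ranged from -0.11 to 0.089 (partners), -0.058 to 0.11 (receptors), -0.11 to 0.12 (annexins), -0.11 to 0.039 (EF-hand sensors), -0.067 to 0.0998 (beside the S100A genes) and 0.042 to 0.15 (near S100P), with 8 to 11, 0 to 3, 3 to 5, 10 to 17, 5 to 10 and 2 to 4 lower. Among these, partners were 0.089 and 0.057 without vehicle replicate 2 and A7 replicate 1, EF-hand sensors 0.039 and 0.013 without the same libraries, annexins -0.0997 and -0.11 without vehicle replicate 1 and A7 replicate 2, and receptors -0.058 and genes beside the S100A genes -0.067 without A7 replicate 1.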
